A study of Homo sapiens with 4 samples.

Results

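Integrins, laminins and collagens are the receptors and the scaffold through which cells hold on to extracellular matrix. They were described here as 37 genes, taken by symbol through the Ensembl identifier of the count table, of 58233 genes in all, and each symbol matched 1 identifier. They comprise 15 integrin chains, 8 laminin chains, 12 collagen chains, and the matrix proteins FN1 (fibronectin) and NID1 (nidogen). Poly(A) RNA was sequenced from MIA PaCa-2 and PANC-1 cells, 2 established human pancreatic cancer cell lines both with the genotype label WT and no engineered allele named in any group. Each line received PBS or cannabichromene (CBC), a cannabinoid of hemp, for 24 h, with 1 library for each of the 4 combinations. The CBC dose was 35 μM for MIA PaCa-2 and 30 μM for PANC-1, so line and dose cannot be told apart in any comparison of the CBC libraries. The labels name the controls PBS, whereas the methods speak of a vehicle control and of CBC dissolved in acetonitrile.

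An integrin is a pair of one alpha and one beta chain that spans the cell membrane, and the pair decides whether it holds laminin, collagen or fibronectin. Laminins are trimers of an alpha, a beta and a gamma chain that, with type IV collagen and nidogen, make up the basement membrane under epithelia. Fibrillar and other interstitial collagens fill the stroma, which is dense in pancreatic cancer, and the tumor cells themselves can make matrix as well as bind it.

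Sequences are shown where a gene was read in one line and nearly unread in the other, and for LAMB3. Among those of the 37 genes with 1 CPM or more in a MIA PaCa-2 library, LAMB3 had the largest log2 fold change after CBC. A RefSeq promoter entry on GRCh38.p14 was found for 30 of the 37 genes. The type IV collagen genes COL4A1 and COL4A2 lie head to head on chromosome 13, with 126 bases between their RefSeq starts at chr13:110307158-110307283. That stretch is printed on the plus strand, with GGGCGG (a GC box, 1 match) and CCAAT (1 match) in capitals. Both motifs were searched on both strands, and they did not overlap.
COL4A1 to COL4A2: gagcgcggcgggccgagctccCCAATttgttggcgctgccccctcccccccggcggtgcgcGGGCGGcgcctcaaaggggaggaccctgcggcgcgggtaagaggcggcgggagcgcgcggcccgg
Of 35116 RefSeq windows of 126 bases before a start, 34.6% hold GGGCGG and 21.1% hold CCAAT. The stretch has 20 CG dinucleotides, against a median of 6 over those windows.

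The 250 bases before the starts of ITGA2 (chr5:52989102-52989351, plus strand), NID1 (chr1:236065091-236065340, minus strand) and COL17A1 (chr10:104085881-104086130, minus strand) are shown with each CG dinucleotide in capitals, because these genes differed most plainly between the lines.
ITGA2: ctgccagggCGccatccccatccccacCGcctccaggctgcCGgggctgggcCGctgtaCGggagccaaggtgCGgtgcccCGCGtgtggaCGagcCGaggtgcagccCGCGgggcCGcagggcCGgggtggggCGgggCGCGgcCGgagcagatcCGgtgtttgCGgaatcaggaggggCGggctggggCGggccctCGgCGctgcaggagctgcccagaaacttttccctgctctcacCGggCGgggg
NID1: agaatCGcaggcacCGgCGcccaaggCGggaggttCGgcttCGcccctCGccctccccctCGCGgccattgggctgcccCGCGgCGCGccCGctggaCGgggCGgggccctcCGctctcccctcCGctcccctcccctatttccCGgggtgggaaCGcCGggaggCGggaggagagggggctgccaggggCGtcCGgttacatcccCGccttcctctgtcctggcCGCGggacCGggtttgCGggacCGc
COL17A1: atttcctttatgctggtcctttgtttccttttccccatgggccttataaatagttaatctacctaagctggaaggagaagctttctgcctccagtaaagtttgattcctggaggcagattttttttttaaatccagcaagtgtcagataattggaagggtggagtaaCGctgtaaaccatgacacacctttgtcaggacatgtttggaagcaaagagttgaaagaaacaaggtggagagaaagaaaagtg
ITGA2 has 26 CG dinucleotides and NID1 has 30, above the median of 11 over all windows of this length. COL17A1 has 1, and 14.7% of the windows have at most 1. LAMB3, a laminin beta chain, has 3 RefSeq start sites. The window of 1 of them (chr1:209651375-209651624, minus strand), which lies within the annotated span of the gene, holds TGACTCA, the AP-1 motif, in capitals, which was searched on both strands and is present in 4.2% of all windows.
LAMB3: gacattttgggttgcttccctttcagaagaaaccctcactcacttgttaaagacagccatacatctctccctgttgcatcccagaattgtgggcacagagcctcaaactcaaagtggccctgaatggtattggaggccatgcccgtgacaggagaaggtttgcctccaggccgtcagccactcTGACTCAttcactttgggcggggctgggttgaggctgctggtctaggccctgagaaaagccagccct
Among the 30 genes with a promoter entry, 2 had this motif in a window, LAMB3 and LAMA3. This counts genes, which can have several windows, so it does not compare with the 4.2% of single windows. The LAMB3 window was printed because it holds the motif. These matches describe the letters of the windows and were not tested against the expression values.

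The libraries held 21742775 to 27903667 counts, and the 37 genes took 0.231% and 0.213% of them in MIA PaCa-2 (PBS and CBC) and 0.792% and 0.842% in PANC-1 cells. Levels are given as CPM, counts scaled to a common library size by the trimmed mean of M-values (TMM), which compare libraries but not genes of unequal length. TPM, which divides by exon length, was used wherever genes are ranked against each other. Of the epithelial markers, KRT8, KRT18 and KRT19 had at least 3976 counts in every library, while EPCAM had 264 and 250 counts in PANC-1 cells and at most 1 in MIA PaCa-2 cells, and CDH1 had 32 and 131 counts in PANC-1 and 0 in MIA PaCa-2. KRT7 had 2 to 58 counts. Of the mesenchymal markers, VIM had 75118 to 119039 counts and ZEB1 959 to 2765, while CDH2 had 725 and 507 counts in PANC-1 and 0 in MIA PaCa-2. Of 16 markers of fibroblasts, endothelium and leukocytes, DCN, LUM, PECAM1, PTPRC and CD3E were at 0 in all 4 libraries, and several others were read. In MIA PaCa-2 (PBS, CBC), COL1A2 had 8174 and 2348 counts, ACTA2 177 and 196, CD14 123 and 18, COL3A1 61 and 2, CDH5 49 and 7, and LYZ 23 and 3. In PANC-1, PDGFRB had 54 and 18 and CD14 32 and 2. All remaining values of these markers were at most 22 counts. With 1 library per group, no difference within a line or between the PBS libraries has a replicate check. The 95% intervals printed beside log2 fold changes are exact binomial (Clopper-Pearson) intervals of the scaled count ratio and cover counting error only. In bulk RNA, fewer cells making a transcript and less of it per cell cannot be told apart.

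The lines differed far more than the treatments did. Most of these genes were read more often in PANC-1 cells, among them the collagen receptor chain ITGA2, NID1, COL1A1, LAMB1 and COL13A1, whereas COL17A1, COL4A1, COL4A2, COL6A1, COL6A2 and ITGB4 were read more often in MIA PaCa-2 cells. Of the 37 genes, 32 had 1 CPM or more in a PBS library and 5 did not (ITGA4, ITGB6, LAMA1, LAMA3 and FN1). Past 2-fold, 23 of the 32 were higher in PANC-1 cells, against 24% of all 14805 genes measured, and 6 were lower, against 18%. In any comparison of the lines, a gene nearly unread in 1 line passes the filter through the other and is nearly bound to pass 2-fold. ITGA2, NID1 and COL4A1 are examples. The shares over all genes rest on the same filter. The 37 genes were chosen with earlier results of these data known, so these counts describe the genes and are no test. The median log2 fold change (PANC-1 over MIA PaCa-2, prior count 2) was 1.73, against 0.10 over all measured genes. The median size regardless of sign was 2.86 against 0.81. After CBC it was 0.46 for the members measured in MIA PaCa-2, against 0.48 over all measured genes. In PANC-1 it was 0.44 against 0.38. Genes below 1 CPM in 1 line can enter the median between the lines but not the CBC median of that line. Past 8-fold there were 15 of the 32 genes, against 13.8% of all genes.

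**Figure D1:**
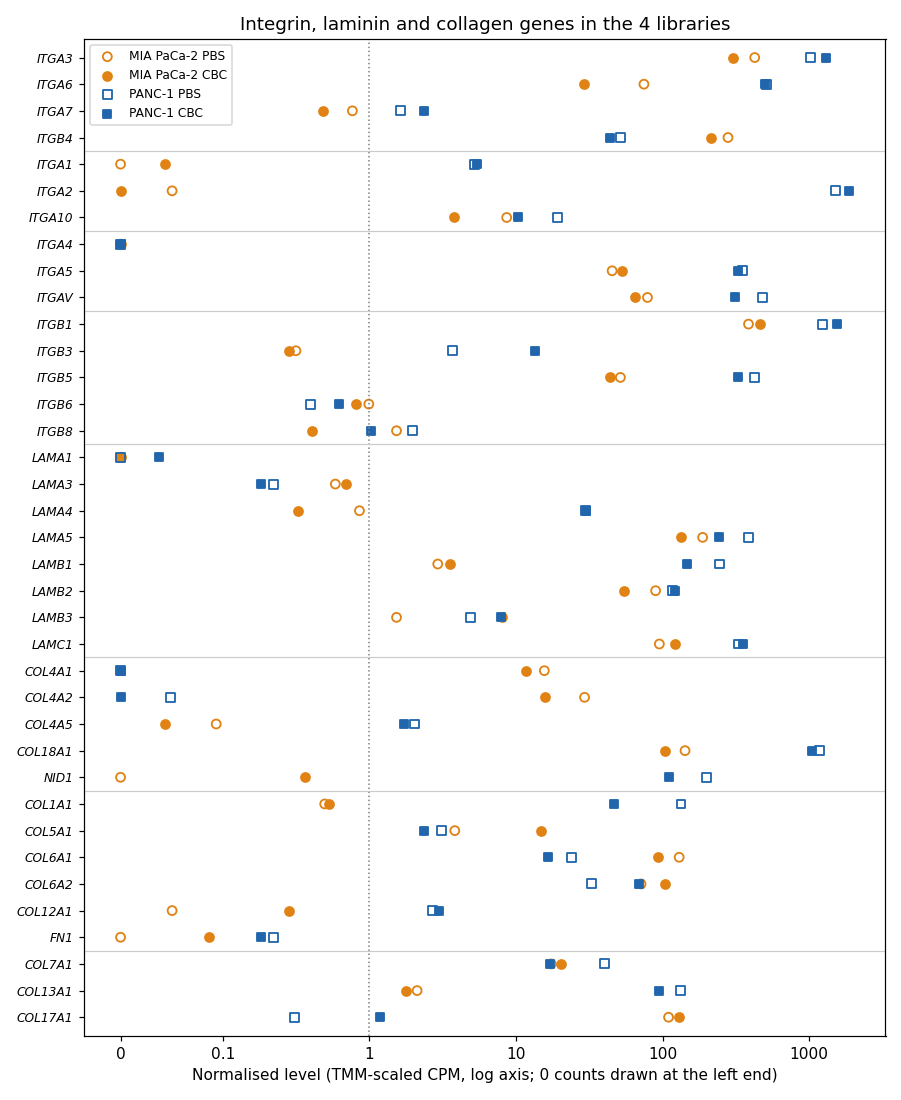
Level of each of the 37 genes in the 4 libraries, on a log axis of TMM-scaled CPM with 0 counts at the left end, grouped from top to bottom by role. Open marks are PBS, filled marks CBC, circles MIA PaCa-2 and squares PANC-1, 1 library each, and the dotted line is the 1 CPM filter. For most genes the open and filled marks of a line lie closer to each other than the marks of the 2 lines do, as for ITGA2 with 1515 and 1875 CPM in PANC-1 and at most 1 count in MIA PaCa-2.

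Silence in a line was set at no more than 3 counts in each of its 2 libraries. In MIA PaCa-2 cells 6 of the 37 genes were silent (ITGA1, ITGA2, ITGA4, LAMA1, COL4A5 and FN1), and in PANC-1 cells 4 were (ITGA4, LAMA1, COL4A1 and COL4A2). ITGA4 and LAMA1, a chain of embryonic laminin, were silent in both lines, with 0 counts for ITGA4 in all 4 libraries and 1 count in all for LAMA1. Over all genes of the table, 67.0% were silent in MIA PaCa-2 and 66.9% in PANC-1. FN1, the fibronectin gene, was nearly unread in both lines, with 0 and 2 counts in MIA PaCa-2 (PBS, CBC) and 5 and 5 in PANC-1. These FN1 counts are as deposited and were not checked against the reads. A count of 0 allows 0.11 to 0.135 CPM by library.

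Among the integrin chains that bind laminin, ITGA3, the alpha chain of a widespread epithelial laminin receptor, had 426 CPM in MIA PaCa-2 PBS, 303 in MIA PaCa-2 CBC, 1017 in PANC-1 PBS and 1312 in PANC-1 CBC. ITGA6, whose alpha chain pairs with beta1 or beta4, had 74.6, 28.9, 514 and 502 CPM in the same order. Both were higher in each PANC-1 library than in either MIA PaCa-2 library, with log2 differences in PBS of 1.26 (interval 1.22 to 1.29) and 2.78 (2.71 to 2.86). ITGB4, the beta chain that joins ITGA6 in hemidesmosomes, ran the other way, with 280 and 214 CPM in MIA PaCa-2 and 51.9 and 43.8 CPM in PANC-1. Its log2 difference in PBS was -2.43 (-2.52 to -2.34). So the partners of the hemidesmosome receptor differed between the lines in opposite directions. ITGA7, the muscle laminin receptor chain, stayed at 0.485 to 2.34 CPM. Per length, ITGA3 ranked highest of this group in PBS, with 164 TPM in MIA PaCa-2 and 392 TPM in PANC-1. ITGB4 followed in MIA PaCa-2 with 156 TPM, and in the CBC library it ranked first (131 against 128 TPM) with the exon length used, but second with the length of the canonical transcript.

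The collagen-binding integrin chains showed the widest gap. ITGA2, the alpha chain of the main epithelial collagen receptor, had 34457 and 51241 counts in the PANC-1 libraries and 1 and 0 counts in MIA PaCa-2. At 725 TPM in PANC-1 PBS and 1016 TPM in PANC-1 CBC it ranked 108 and 83 among all genes with the exon length used. With the length of the canonical transcript its levels were 440 and 596 TPM. The count ratio of the PBS libraries, scaled for library size, was 33707, with a log2 interval of 12.56 to 20.34 that reflects the single count, and in the CBC libraries ITGA2 was at least 15464.5-fold higher in PANC-1. ITGA1, the other widespread collagen receptor chain, had 0 and 1 counts in MIA PaCa-2 and 119 and 148 in PANC-1, at least 38.8-fold higher in PBS. ITGA10, a chain best known from cartilage, was thus the highest collagen-binding alpha chain per length in MIA PaCa-2, at 5.22 TPM in PBS and 2.49 TPM in CBC. Its levels were 8.63 and 3.76 CPM in MIA PaCa-2 and 19.1 and 10.2 CPM in PANC-1, a log2 difference in PBS of 1.14 (0.90 to 1.40). ITGA2 lies on chromosome 5 of GRCh38 at 52989340 to 53094779 and ITGA1 at 52787916 to 52959209, so the genes are neighbours.

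Of the alpha chains that bind fibronectin, ITGA5, of the classical fibronectin receptor, had 45.3 and 52.5 CPM in MIA PaCa-2 (PBS, CBC) and 350 and 327 CPM in PANC-1. ITGAV, which also binds vitronectin, had 78.9 and 64.6 CPM in MIA PaCa-2 and 484 and 314 CPM in PANC-1. Both were higher in PANC-1 in PBS, by log2 differences of 2.95 (2.85 to 3.05) and 2.62 (2.54 to 2.69). ITGB1, the beta chain common to most matrix integrins, had 386 and 461 CPM in MIA PaCa-2 and 1230.1 and 1546 CPM in PANC-1. It ranked highest of the beta chains of this group per length in all 4 libraries, from 100 TPM in MIA PaCa-2 PBS to 454 TPM in PANC-1 CBC. With the length of the canonical transcript these levels were 234 and 1032 TPM. Of the beta chains of this group other than ITGB1, ITGB3, ITGB6 and ITGB8 had at most 8.46 TPM. ITGB5 led them in both lines, with 29.9 and 28.0 TPM in MIA PaCa-2 and 248 and 215 TPM in PANC-1. Its levels were 51.6, 44.1, 427 and 328 CPM in the order above, and its log2 difference in PBS was 3.05 (2.96 to 3.14). ITGB3, the vitronectin receptor chain also known from platelets, had 7 counts in each MIA PaCa-2 library and 84 and 369 in PANC-1. It shares 33.2% of its exon length with another annotated gene on the same strand, ENSG00000259753, and how shared reads were counted is not given in the sources used here. ITGB6 stayed below 1 CPM in every library, with 22, 20, 9 and 17 counts. ITGB8 had 34 and 10 counts in MIA PaCa-2 and 45 and 28 in PANC-1. ITGB6 and ITGB8 both encode chains of receptors that activate TGF-beta.

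Among laminin chains, LAMB1 and LAMC1, the beta and gamma chains of the commonest laminins, differed between the lines to unequal degrees. LAMB1 had 65 and 87 counts in MIA PaCa-2 and 5589 and 4019 in PANC-1, a log2 difference in PBS of 6.35 (6.04 to 6.77). LAMC1 differed less, with 95.1 and 122 CPM against 328 and 353 CPM. LAMB2, the other widespread beta chain, was close in the PBS libraries, with 89.7 CPM in MIA PaCa-2 and 116 CPM in PANC-1 (log2 difference 0.37, 0.29 to 0.46), and in the CBC libraries with 54.8 and 122 CPM the gap passed 2-fold. The beta chain read most therefore was LAMB2 in MIA PaCa-2 (49.3 TPM against 0.593 TPM for LAMB1 in PBS), while in PANC-1 PBS LAMB2 stood at 63.9 TPM and LAMB1 at 49.9 TPM. Of the alpha chains, LAMA5, the main alpha chain of adult epithelial basement membranes, had 188 and 135 CPM in MIA PaCa-2 and 389 and 244 CPM in PANC-1. LAMA4, known from vessels and muscle, had 19 and 8 counts in MIA PaCa-2 and 676 and 825 in PANC-1, a log2 difference in PBS of 4.99 (4.47 to 5.86). LAMA3, the alpha chain of the laminin of hemidesmosomes, had at most 17 counts in any library. LAMB3, the beta chain of that same laminin, had 1.53 and 8.005 CPM in MIA PaCa-2 and 4.88 and 7.90 CPM in PANC-1. Thus LAMB3 differed between the lines past 2-fold in PBS (log2 1.62, 1.11 to 2.27) and not in CBC (-0.02). Per length, the highest laminin chain was LAMA5 at 49.5 TPM in MIA PaCa-2 PBS and LAMC1 at 147 TPM in PANC-1 PBS. With the canonical transcript length LAMB1 took that place in PANC-1 PBS at 99.0 TPM, so it then stood above LAMB2 as well.

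Basement membrane collagens split the lines. COL4A1 and COL4A2, whose chains form the type IV collagen network of all basement membranes, had 347 and 653 counts in MIA PaCa-2 PBS and 288 and 390 in MIA PaCa-2 CBC. In PANC-1 cells COL4A1 had 0 counts in both libraries and COL4A2 had 1 and 0. With a 0 set at 3 counts, COL4A1 was 118-fold lower in PANC-1 in PBS and 106-fold lower in CBC. COL4A2 was 144-fold lower in CBC, where it had no count. The upper ends of these log2 intervals were -6.58, -6.42 and -6.86. In PBS, with its 1 count, COL4A2 was 668-fold lower by the scaled count ratio, with a log2 interval of -14.69 to -6.90. COL4A5, an X-linked chain of specialised basement membranes, had 2 and 1 counts in MIA PaCa-2 and 46 and 47 in PANC-1. NID1, the linker of the laminin and collagen networks, had 0 and 9 counts in MIA PaCa-2 and 4508 and 3021 in PANC-1. In PBS it was 1470.0-fold higher in PANC-1 with the 0 set at 3 counts, and its log2 interval began at 10.22. PANC-1 cells thus read the linker without the COL4A1 and COL4A2 network chains, and MIA PaCa-2 cells the reverse. COL18A1, the source of endostatin, was the highest of this group per length in every library, with 63.4 and 50.5 TPM in MIA PaCa-2 and 529 and 530 TPM in PANC-1, where it ranked 196 and 198 among all genes. In CPM it had 142 and 103 in MIA PaCa-2 and 1186 and 1048 in PANC-1. It shares 18.5% of its exon length with SLC19A1 on the opposite strand, and whether the counting kept strands apart is not given in the sources used here.

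**Figure D2:**
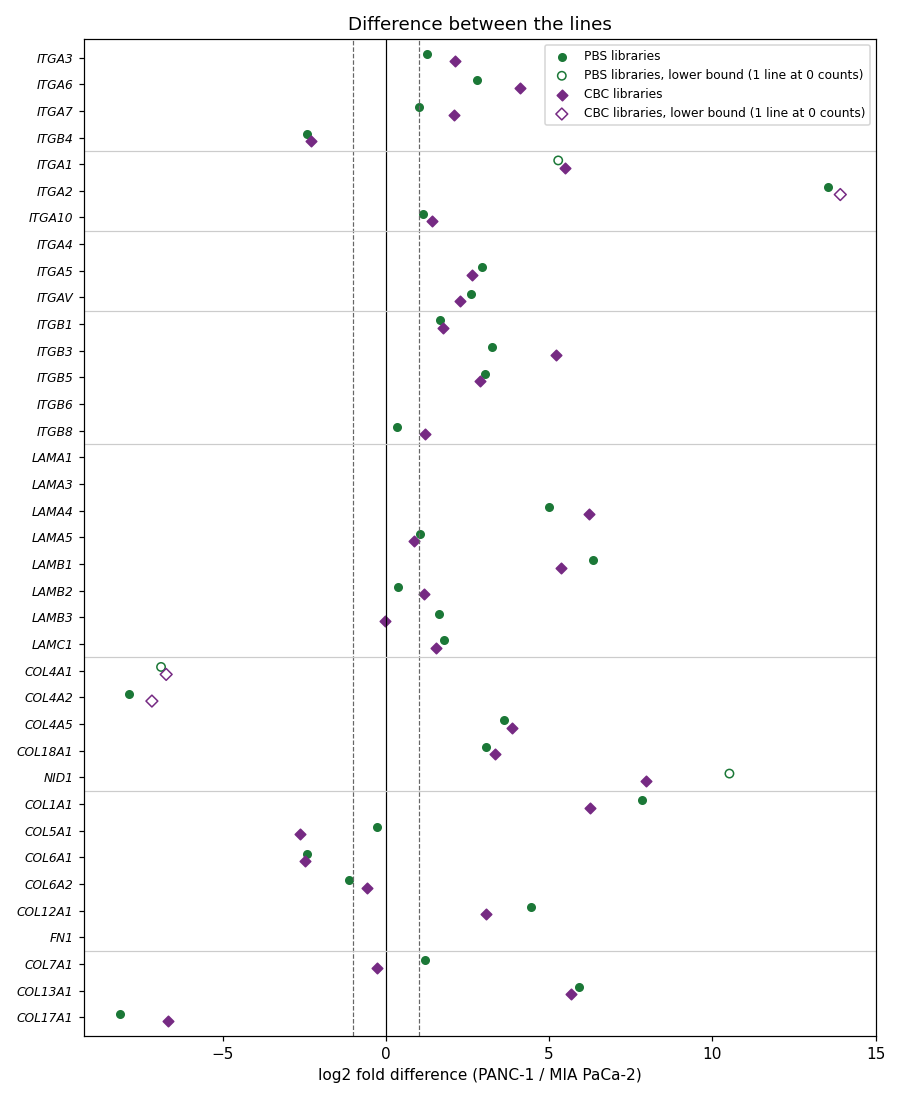
Log2 fold difference between the lines (PANC-1 over MIA PaCa-2, prior count 2) for the genes with 1 CPM or more in a library compared, in PBS (circles) and in CBC (diamonds). Open marks, labelled as lower bounds, set a line with 0 counts at 3 counts and leave out the counting error of the other line. Dashed lines mark 2-fold, and rows without marks are genes below the filter. Most marks lie to the right of the 2-fold line, and those of COL17A1, COL4A1 and COL4A2 lie farthest to the left.

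Interstitial and membrane collagens differed in both directions. COL1A1, a chain of type I collagen, had 11 and 13 counts in MIA PaCa-2 and 3037 and 1268 in PANC-1, a log2 difference in PBS of 7.86 (7.24 to 9.08). COL12A1, which decorates type I fibrils, had 1 and 7 counts against 61 and 82. COL6A1 and COL6A2, chains of the beaded type VI filaments, were higher in MIA PaCa-2. COL6A1 had 130 and 92.9 CPM there against 24.1 and 16.7 CPM in PANC-1, and COL6A2 had 71.3 and 104 CPM against 32.9 and 69.1 CPM. Per length, COL6A1 led this group in MIA PaCa-2 PBS (88.5 TPM), COL1A1 in PANC-1 PBS (56.0 TPM) and COL6A2 in both CBC libraries (80.4 TPM in MIA PaCa-2 and 55.4 TPM in PANC-1). COL5A1, a chain of the type V collagen that sets fibril width, was similar in the PBS libraries at 3.82 and 3.12 CPM, with a log2 difference of -0.28 (-0.77 to 0.18), and higher in MIA PaCa-2 in CBC, at 14.8 against 2.34 CPM. COL17A1, the transmembrane collagen of hemidesmosomes, had 2444 and 3183 counts in MIA PaCa-2 and 7 and 32 in PANC-1, a log2 difference in PBS of -8.14 (-9.80 to -7.43). It was the highest membrane or anchoring collagen in MIA PaCa-2 at 59.3 and 76.2 TPM. In PANC-1 that place belonged to COL13A1, a transmembrane collagen of cell adhesion sites, at 43.4 and 35.3 TPM, with 47 and 44 counts in MIA PaCa-2 and 3005 and 2597 in PANC-1. Its log2 difference in PBS was 5.91 (5.55 to 6.41). COL7A1, the anchoring fibril collagen, had 17.4 and 20.4 CPM in MIA PaCa-2 and 39.9 and 17.02 CPM in PANC-1. MIA PaCa-2 cells thus read the hemidesmosome genes ITGB4 and COL17A1 more, and PANC-1 cells ITGA6, their partner.

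The comparison of the CBC libraries gave much the same side for most genes. Past 2-fold in PBS and in CBC on the same side were 25 of 32 genes, 4 passed 2-fold in PBS alone (LAMA5, LAMB3, COL6A2 and COL7A1), 3 in CBC alone (ITGB8, LAMB2 and COL5A1), and none lay past 2-fold on opposite sides. Of the 14258 genes of the table measured in both comparisons, 32.6% passed 2-fold on the same side and 0.154% on opposite sides. In the CBC libraries alone, 22 members were higher in PANC-1 past 2-fold, against 25.7% of all 15043 genes measured, and 6 were lower, against 19.9%. These 2 comparisons share no library, although the cultures of a line are the same line. In edgeR's quasi-likelihood test over both treatments, with treatment as a block and Benjamini-Hochberg adjustment over 16381 genes, 27 of the 34 members tested were called at an adjusted p under 0.05. Of these, 21 were higher in PANC-1, against 25.1% of all genes tested, and 6 were lower, against 21.7%. The lower ones were ITGB4, COL4A1, COL4A2, COL6A1, COL6A2 and COL17A1. For COL6A1 the fitted log2 difference was -2.52 (SE 0.22, adjusted p = 0.00011 in edgeR), and for LAMB1 it was 5.82 (SE 0.34, adjusted p = 1.7e-05 in edgeR). The 7 that were not called were ITGA7, ITGB6, ITGB8, LAMA3, LAMB3, COL5A1 and COL7A1, with adjusted p from 0.0586 to 0.407 in edgeR. This test takes the PBS and the CBC library of a line as its replicates and has 1 residual degree of freedom, so it speaks of these 2 cell lines and of the spread between their libraries. LAMB2 (adjusted p = 0.0465 in edgeR) lost its call under 5 of the 6 alternatives tried.

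After CBC treatment, MIA PaCa-2 cells showed few changes past 2-fold among these genes. LAMB3 and COL5A1 were higher, and the integrin chains ITGA6, ITGA10 and ITGB8 were lower. Of the 37 genes, 23 had 1 CPM or more in a MIA PaCa-2 library and 14 did not. The 2 that were higher compare with 11.5% of all 14001 genes measured, and the 3 that were lower with 8.97%. For the 23 genes the shares were 8.70% and 13.0%, so they lay near the background. The median log2 fold change was -0.29, against -0.01 over all measured genes, and 14 of the 23 were below 0.

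In MIA PaCa-2, LAMB3 had 34 counts in PBS and 198 in CBC (1.53 and 8.005 CPM). Its log2 fold change of 2.33 (1.86 to 2.96) was the largest among the 23. COL5A1 had 85 and 367 counts (3.82 and 14.8 CPM), with a log2 change of 1.93 (1.61 to 2.31). ITGA6 had 1660 and 716 counts (74.6 and 28.9 CPM), with a log2 change of -1.36 (-1.50 to -1.24). For these 3 genes the counting interval lay wholly past 2-fold. ITGA10 had 192 and 93 counts, with a log2 change of -1.18 (-1.57 to -0.83), and ITGB8 had 34 and 10 counts, with a log2 change of -1.73 (-3.10 to -0.87). Their intervals reached back inside 2-fold, and with the deposited CPM and a pseudocount of 1 the log2 change of ITGB8 was -0.85. The 18 other genes measured stayed within 2-fold. Among them were COL4A2 (-0.89, -1.08 to -0.71), LAMB2 (-0.71, -0.81 to -0.61), COL6A2 (0.54, 0.45 to 0.63), and LAMC1 (0.35, 0.27 to 0.43). The beta partners of ITGA6 did not pass 2-fold, with log2 fold changes of 0.26 (0.22 to 0.30) for ITGB1 and -0.39 (-0.44 to -0.34) for ITGB4. Markers moved as well in this line. The summed level of the 7 fibroblast and stellate cell markers, which include COL1A2 and COL3A1, went from 378 to 104 CPM, with DCN and LUM at 0. COL1A2 alone went from 368 to 94.9 CPM, while ACTA2 had 7.96 and 7.92 CPM and PDGFRB 0 and 15 counts. The summed level of the 6 epithelial markers went from 3476 to 2553 CPM, nearly all of it KRT8, KRT18 and KRT19, while KRT7 had 2 and 52 counts. Their part in these results was not tested.

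**Figure D3:**
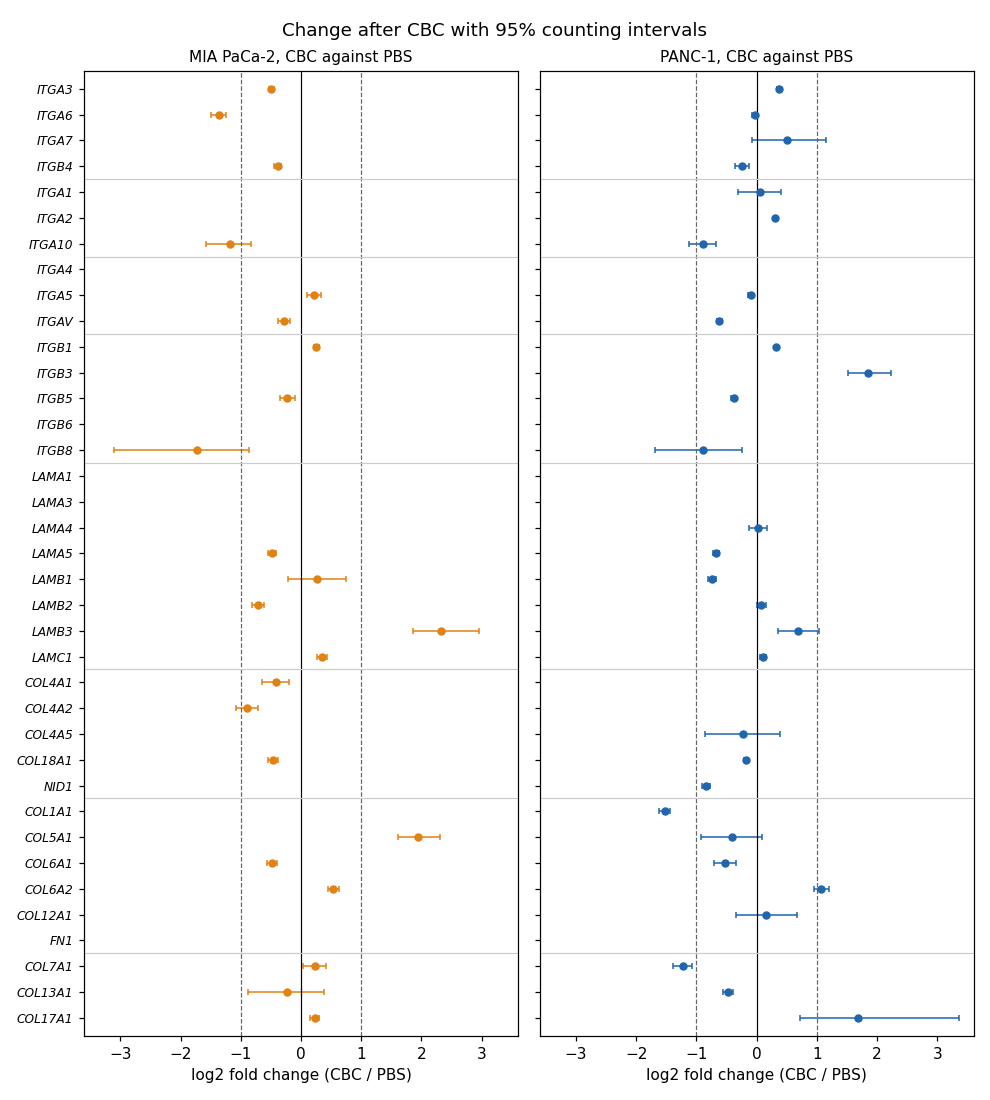
Log2 fold change after CBC in MIA PaCa-2 (left) and PANC-1 (right) for the genes with 1 CPM or more in the line, with horizontal bars for the exact binomial 95% interval, which covers counting error only. Dashed lines mark 2-fold, and rows without a point are genes below the filter. LAMB3 (2.33) and COL5A1 (1.93) stand farthest to the right in MIA PaCa-2, and ITGB3 (1.85) and COL17A1 (1.68) in PANC-1.

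In PANC-1 cells, 5 genes passed 2-fold after CBC. ITGB3, COL6A2 and COL17A1 were higher, and COL1A1 and COL7A1 were lower. None was among the 5 of MIA PaCa-2 cells, where ITGB3 and COL1A1 stayed below 1 CPM and were not measured. Over all 12502 genes measured in both lines, 6.63% passed 2-fold in both. Of the 37 genes, 30 had 1 CPM or more in a PANC-1 library and 7 did not. The 3 that were higher compare with 7.71% of all 14091 genes measured and the 2 that were lower with 7.03%. Among the 30 genes these were 10% and 6.67%, again near the background. The median log2 fold change was -0.14, against 0.02 over all measured genes.

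In PANC-1, ITGB3 had 84 counts in PBS and 369 in CBC (3.69 and 13.5 CPM), with a log2 change of 1.85 (1.52 to 2.23). COL1A1 had 3037 and 1268 counts (134 and 46.4 CPM), with a log2 change of -1.52 (-1.62 to -1.43). COL7A1 had 908 and 465 counts (39.9 and 17.02 CPM), with a log2 change of -1.23 (-1.39 to -1.07). The interval lay wholly past 2-fold for these 3. COL6A2 had 747 and 1888 counts (32.9 and 69.1 CPM), with a log2 change of 1.071 (0.95 to 1.197), while its filament partner COL6A1 went from 24.1 to 16.7 CPM (-0.53, -0.71 to -0.35). COL17A1 had 7 and 32 counts, with a log2 change of 1.68 (0.72 to 3.35) that was 0.73 with the deposited CPM and a pseudocount of 1. ITGA2, the chain nearly unread in the other line, had 1515 and 1875 CPM (0.31, 0.29 to 0.33). Of the 25 genes within 2-fold, ITGA10 (-0.89, -1.12 to -0.68), ITGB8 (-0.90, -1.68 to -0.24), NID1 (-0.84, -0.91 to -0.78) and LAMB1 (-0.74, -0.80 to -0.68) were lowest. The summed level of the epithelial markers went from 2045 to 1206 CPM in this line, nearly all of it KRT8, KRT18 and KRT19. CDH1 ran the other way (log2 fold change 1.71, 1.201 to 2.37), and KRT7 was at -0.02 (-0.60 to 0.56). Their part in these results was not tested.

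Of the 37 genes, 21 were measured in both lines, 11 in 1 line and 5 in none. Of the 21, none passed 2-fold in both lines, against 6.63% of the 12502 genes of the table measured in both. Past 2-fold in neither line were 13 of the 21, against 76.4% of all genes, and the remaining 8 passed it in 1 line. Of the 21, 10 were lower in both lines, against 35.1% of all genes, and 5 were higher in both, against 34.8%. The integrin chains ITGA10, ITGB8, ITGAV, ITGB5 and ITGB4, the laminin chain LAMA5, and COL6A1, COL18A1 and COL13A1 had log2 fold changes below 0 in each line, as had ITGA6 (-0.03 in PANC-1), which was at 0.04 there when scaled by library totals. Across these 21 genes, which share their libraries and are not independent, Pearson's r between the changes of the lines was 0.36, against 0.59 across all genes measured in both. In edgeR's quasi-likelihood test of CBC over both lines, with the line as a block, 0 of the 34 members tested were called, against 2.26% of all genes called higher and 2.45% called lower. Among the 34, 7 had an unadjusted p under 0.05 in edgeR, 2 of them higher (LAMB3 and COL6A2) and 5 lower (ITGA10, ITGB8, LAMA5, COL1A1 and COL6A1), and over all genes the share under that value was 20.9%. The smallest adjusted p in edgeR was 0.0959, for COL6A2, with a fitted log2 fold change of 0.81 (SE 0.23) and higher values in both lines. DESeq2 with the same design called 1 member, LAMA5, lower (adjusted p = 0.0455), which had 188 and 135 CPM in MIA PaCa-2 and 389 and 244 CPM in PANC-1. With 1 residual degree of freedom and unequal doses, this test compares the 2 lines with their own controls and no more.

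Other collagen and integrin chains, which are not among the 37 and some of which assemble with them, were measured from lists of these families. Of 32 other collagen chains, 14 were silent in both lines. In PBS 14 reached 1 CPM. Past 2-fold, 5 of these were higher in PANC-1, against 24% of all genes measured, and 9 were lower, against 18%. COL1A2, which joins COL1A1 in type I collagen, had 8174 and 2348 counts in MIA PaCa-2 and 0 and 1 in PANC-1, the reverse of COL1A1. COL5A2, the partner of COL5A1, had 634 and 588 CPM in MIA PaCa-2 and 1.63 and 1.43 CPM in PANC-1. COL6A3, the long chain of type VI collagen, had 81.4 and 129 CPM in MIA PaCa-2 and 2.64 and 0.878 CPM in PANC-1, on the same side as COL6A1 and COL6A2. COL5A2 was named after its values were seen. After CBC, 1 of 9 other collagen chains measured in MIA PaCa-2 was higher past 2-fold, against 11.5% of all genes. Lower were 2, against 8.97%. In PANC-1 0 of 9 were higher, against 7.71% of all genes, and 4 were lower, against 7.03%. COL1A2 was the 1 collagen chain of the list called in the test over both lines (log2 fold change -1.84, SE 0.37, adjusted p = 0.0364 in edgeR), a call that rests on MIA PaCa-2 because PANC-1 had 0 and 1 counts. COL27A1, a fibrillar collagen, had 21.5 and 42.4 CPM in MIA PaCa-2 and 4.66 and 6.95 CPM in PANC-1.

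Of 11 other integrin chains, 4 were silent in both lines. In MIA PaCa-2 2 of the 4 measured were higher past 2-fold after CBC, against 11.5% of all genes, and 0 lower, against 8.97%. The higher ones were ITGAX (0 to 271 counts) and ITGAM (12 to 491 counts). Both are alpha chains of leukocyte integrins and were named after their values were seen. In PANC-1 ITGAX had 8 and 58 counts and ITGAM 4 and 4. The leukocyte markers PTPRC and CD3E were at 0 in these libraries, and the summed level of the 5 leukocyte markers was 6.61 and 1.21 CPM in MIA PaCa-2. ITGAE, the alpha chain that binds E-cadherin, had 17.2 and 10.5 CPM in MIA PaCa-2 and 17.8 and 12.4 CPM in PANC-1.

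**Figure D4:**
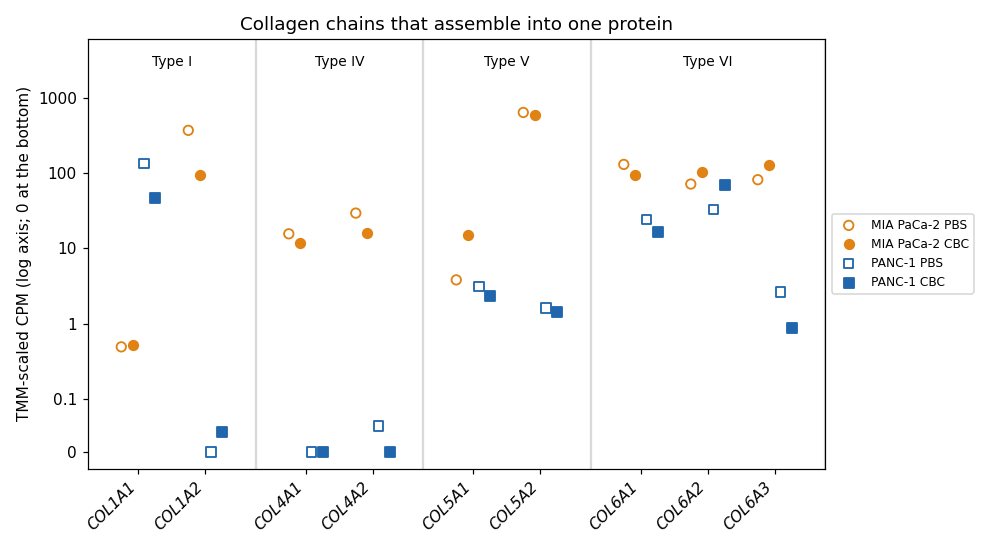
TMM-scaled CPM, on a log axis with 0 at the bottom, of collagen chains that join into one protein, for MIA PaCa-2 (circles) and PANC-1 (squares) in PBS (open) and CBC (filled), 1 library per mark. COL1A1 is high in PANC-1 (134 CPM in PBS) where COL1A2 is at 0, and COL1A2 is high in MIA PaCa-2 (368 CPM in PBS) where COL1A1 is at 0.495 CPM, whereas the marks of the 3 type VI chains all lie higher in MIA PaCa-2.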

How the data were processed

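Poly(A) RNA of 4 libraries was analysed, 1 for each line and treatment, grouped by the labelled line and treatment. The deposited table holds raw counts, which the authors obtained with HTSeq from reads trimmed by cutadapt 2.7 and aligned by STAR to GRCh38. HTSeq's mode and strand option, which decide how reads shared by overlapping genes are split, are not given in the sources used here. In addition each library has a deposited signal, its CPM after edgeR's TMM scaling over all 4, and recomputing it from the counts gave a largest relative difference of 6.84e-09. Depth is 21742775 to 27903667 counts, at which 3 counts, the limit a count of 0 allows, are 0.11 to 0.135 CPM.

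From the counts, log2 fold changes were computed with edgeR 4.0.16 in R 4.3.3 (TMM, prior count 2) for genes that had 1 CPM or more in either library compared, with exact binomial 95% intervals. Within a line there is no test, as each group has 1 library. Over both lines, counts were fitted with edgeR's quasi-likelihood test (line plus treatment, edgeR's own filter, Benjamini-Hochberg over 16381 genes). The line pairs the libraries: deviations from the treatment means correlated at 0.922 between the 2 libraries of a line. The common dispersion of this fit over the 16381 genes came to a coefficient of variation of 23%. With 1 library for each line and treatment, it measures departure from line plus treatment, not variation between replicate cultures. P-values measure only the spread between these libraries. TPM used exon lengths of GENCODE 44 on GRCh38, while the counts rest on another annotation release, and 57392 of 58233 genes had a symbol and a length. Promoter sequences and start sites came from RefSeq.

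The genes and lists were chosen with earlier results of these data known. All 37 genes are accounted for by name. Full values are given for those past 2-fold after CBC in either line, called over both lines, highest per length in their group, or silent in 1 line. The other lists reported are given by counts, with up to 3 genes of the largest mean change after CBC among those with a mean of at least 10 CPM, and any other gene is said to be named after its values were seen. Some genes of these lists are not reported here. Alternatives changed the scaling, prior count, filter, values, call rule, block and tool (DESeq2 1.42.0).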

Additional observations from a re-analysis of the deposited data

Results flagged for a closer look

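Each of these genes moved to one side after CBC in MIA PaCa-2 cells and to the other in PANC-1 cells, with counting intervals that excluded no change in each line under the scaling used. Values are log2 fold changes after CBC, PANC-1 minus MIA PaCa-2. With 1 library per group the differences between the lines were not tested, and the doses of the lines differ. Among the 37 genes, the difference was 0.86 for ITGA3 (-0.49 in MIA PaCa-2, 0.37 in PANC-1), -0.31 for ITGA5 (0.21 and -0.10), 0.78 for LAMB2 (-0.71 and 0.07, where the interval in PANC-1 began at 0.000203) and -1.45 for COL7A1 (0.23 and -1.23). COL7A1 is the one of these 4 that passed 2-fold in a line. In PANC-1 the interval took in 0 for LAMB2 with TMM over the 2 libraries (0.045, -0.029 to 0.12) and with DESeq2 size factors (0.057, -0.017 to 0.13), and for ITGA5 with library totals (-0.027, -0.071 to 0.017). Among related genes it was -2.17 for COL6A3 (0.67 and -1.50), -2.22 for CCN1 (1.11 and -1.11), -3.27 for FERMT1 (1.53 and -1.74) and 1.35 for DDR2 (-0.34 and 1.01).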

How the results depend on the processing

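In the 3 comparisons of single libraries and the 2 tests over all 4, the sign of a member's log2 change turned under an alternative for ITGA6 in PANC-1 (-0.03, and 0.04 with library totals) and LAMA4 in PANC-1 (0.02, and -0.01 with TMM over the 2 libraries), both near 0. Library totals moved the median of all genes between the PBS libraries by -0.13 (log2). Without the filter on low levels, 8 members rather than 5 passed 2-fold after CBC in MIA PaCa-2. Counting only members whose interval lay wholly past 2-fold gave 3 in MIA PaCa-2 and 3 in PANC-1, in place of 5 in each line. In the test of CBC over both lines, 4 members were called without the filter (ITGA6 and COL1A1 lower, COL6A2 and LAMB3 higher) and 1 with DESeq2, in place of 0. The causes were not tested. Without the replicate block of cell line 0 members were called for CBC, with 0 at an unadjusted p under 0.05, and without the block of treatment 23 were called for the line, in place of 27, with ITGA10, LAMA5, LAMB2 and COL6A2 no longer called. Under the alternatives, 24 to 32 members passed 2-fold between the PBS libraries and 23 to 29 were called for the line. ITGA7 was within 2-fold between the lines in PBS under 4 settings (log2 0.57 to 0.999) and LAMA5 with library totals (0.92). Leaving out a library was not possible, since it leaves no residual degree of freedom. Genes near 3 counts (ITGA1 and ITGA2 in MIA PaCa-2, COL4A1 and COL4A2 in PANC-1) have bounds or wide intervals in place of precise folds. The canonical transcript length, an alternative chosen after seeing the data, changed the highest chain per length in 3 places, 2 of them named in the report and the third in MIA PaCa-2 PBS, where ITGAV passed ITGA5.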

Other observations

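The machinery around the 37 genes was measured from 4 further lists. Past 2-fold after CBC, 11.5% of all genes measured were higher and 8.97% lower in MIA PaCa-2. In PANC-1 the shares were 7.71% higher and 7.03% lower. The counts of all 4 lists, here and in the next paragraph, compare with these shares. Of 25 collagen-modifying enzymes and chaperones, 18 were measured in MIA PaCa-2, with 2 higher and 0 lower past 2-fold after CBC, and 24 in PANC-1, with 1 higher and 3 lower. PLOD1, a lysyl hydroxylase, had 248 and 160 CPM in MIA PaCa-2 and 195 and 91.4 CPM in PANC-1, with log2 fold changes of -0.63 and -1.10. PLOD2, another lysyl hydroxylase, had 14 and 1 counts in MIA PaCa-2 and 4318 and 3712 in PANC-1. P3H3, of the prolyl 3-hydroxylase family, went from 103 to 94.5 CPM and from 33.2 to 11.6 CPM. Of 16 integrin activators and adaptors, all measured in both lines, 1 was higher (FERMT1) and 1 lower (VCL) in MIA PaCa-2, and 0 were higher and 2 lower (FERMT1 and TLN2) in PANC-1. FERMT1, an activator of integrins in epithelia, had 124 and 358 CPM in MIA PaCa-2 and 7.39 and 2.16 CPM in PANC-1. VCL, which links integrin adhesions to actin, went from 478 to 144 CPM and from 732 to 566 CPM. TLN2, a talin, stayed at 1.17 CPM in MIA PaCa-2 and went from 39.7 to 19.3 CPM in PANC-1.

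Of 8 other matrix receptors, 0 were higher and 1 lower (BCAM) in MIA PaCa-2, and 1 was higher (DDR2) and 0 lower in PANC-1. BCAM, a receptor of LAMA5, had 78.2 and 31.3 CPM in MIA PaCa-2 and 36.9 and 20.9 CPM in PANC-1, and its adjusted p over both lines was 0.0532 in edgeR. CD44, the hyaluronan receptor, went from 1506 to 863 CPM and from 1651 to 1101 CPM (adjusted p = 0.0548 in edgeR). DDR2, a tyrosine kinase that binds fibrillar collagen, had 144 and 114 CPM in MIA PaCa-2 and 2.02 and 4.17 CPM in PANC-1. Its log2 fold change in PANC-1 was 1.01 (0.54 to 1.57). With TMM over the 2 libraries (0.988) and with DESeq2 size factors (0.998) it lay within 2-fold. Of 16 other basement membrane and matricellular proteins, 5 were measured in MIA PaCa-2, with 1 higher (CCN1) and 0 lower, and 7 in PANC-1, with 0 higher and 3 lower. CCN2, a matricellular growth factor, had 5 and 21 counts in MIA PaCa-2 and went from 5336 to 1837 counts in PANC-1. FBLN1, a fibulin of basement membranes, went from 16.5 to 8.97 CPM and from 135 to 88.0 CPM.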
